A study of Mus musculus with 3 samples.

Results

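The interferon response genes described here are 9 mouse genes, taken by symbol from the 53380 features of the deposited matrices. They are Ifi205, Ifi207 and Mndal of the Ifi200 family, the tetratricopeptide genes Ifit1 and Ifit3, the ubiquitin-like modifier Isg15, the transcription factor Irf7, and the membrane proteins Bst2 and Ifitm3. All 9 were found, and all had UMIs (unique molecular identifiers, each standing for 1 captured RNA molecule) in every library. The genes were selected on their measured CPM in these same libraries, by opposite movement in epineurial and perineurial cells, so the levels and directions below are a description with no test.

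Mesenchymal cells were sorted from mouse sciatic nerve by TdTomato, switched on in R26-TomatoLSL mice by Pdgfrb-cre/ERT2, a tamoxifen-inducible Cre that follows the Pdgfrb gene. There were 3 groups, namely uninjured nerve and the bridge tissue taken 7 and 21 days after injury, each a single library of pooled nerves, and all of them carried both alleles. Only the intact nerve suspension was treated with beads that take out myelin, so beads and injury cannot be told apart. Age, sex, number of animals and tamoxifen dose are not given in the sources used here. Pdgfrb is also active in pericytes and vascular smooth muscle, so the reporter does not mark fibroblasts alone. With 1 library per group no difference has a replicate check, no p-value is given, and every interval covers counting error only.

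Type I interferons bind the receptor pair Ifnar1 and Ifnar2, and signalling through the kinases Jak1 and Tyk2 leads to a complex with Irf9 that binds a short repeated element in the promoters of interferon-stimulated genes. Interferon gamma uses the receptor pair Ifngr1 and Ifngr2, with a partly different set of targets such as Cxcl9, the Gbp genes and Irf1. Ifi200 proteins bind nucleic acid, Ifit proteins bind foreign RNA, Isg15 is attached to other proteins, Irf7 amplifies interferon production, Bst2 tethers budding virus particles, and Ifitm3 blocks viral fusion in endosomes. The epineurium is the outer sheath of a nerve, the perineurium the barrier layer around each fascicle, and the endoneurium the tissue among the axons inside.

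The promoters of these genes show what they share beyond their levels, since the interferon element, written GAAA, then any 2 bases, then GAAA, was found in 8 of the 9. It was sought on both strands in RefSeq windows of GRCm38.p6 running from 250 bases before to 50 bases after each start, and it was in 3.99% of 27025 genes and 3.44% of 32851 windows. Of 39 other interferon-stimulated genes with a window, 20 held it (51.3%). The window of Irf7 held no match, which says only that these letters are absent from that window. The stretches below lie upstream of the RefSeq start and are written 5′ to 3′ on the gene's strand, with matches to the element or its reverse complement in capitals. The first 3 set the Ifi200 genes side by side, and the other 3 show repeated copies.
Ifi205, chr1:174031855-174031914, minus strand: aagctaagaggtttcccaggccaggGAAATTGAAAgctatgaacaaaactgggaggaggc
Ifi207, chr1:173741816-173741875, minus strand: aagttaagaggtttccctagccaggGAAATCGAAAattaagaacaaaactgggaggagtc
Mndal, chr1:173880189-173880248, minus strand: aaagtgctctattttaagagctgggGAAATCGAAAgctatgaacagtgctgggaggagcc
Ifit1, chr19:34640760-34640838, plus strand: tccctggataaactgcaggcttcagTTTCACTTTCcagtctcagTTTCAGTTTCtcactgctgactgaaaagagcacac
Ifit3, chr19:34583348-34583441, plus strand: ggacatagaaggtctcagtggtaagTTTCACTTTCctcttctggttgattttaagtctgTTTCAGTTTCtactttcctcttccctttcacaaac
Isg15, chr4:156200850-156200921, minus strand: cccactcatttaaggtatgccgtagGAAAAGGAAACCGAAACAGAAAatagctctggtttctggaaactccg
Ifi207 and Mndal carried the same 10 letters in capitals, at positions -41 and -36 from their starts. In Ifit1 and Ifit3 the element stood on the opposite strand, in 2 copies, nearest at -85 and -122. Isg15 had 3 overlapping copies in 1 run, nearest at -66. Bst2 held 2 overlapping copies, nearest at -124, and Ifitm3 held 2 copies just after the start. Ifi205 had another copy after its start, at 23, and a second RefSeq start of Mndal had 1 copy at -54, neither of them printed here. A match is a description of the letters and not a bound site.

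The genes lie on 5 chromosomes. In GENCODE M21 on GRCm38, Ifi207 (ENSMUSG00000073490.11) is at chr1:173723427-173741747, Mndal (ENSMUSG00000090272.8) at chr1:173849126-173942491 and Ifi205 (ENSMUSG00000054203.7) at chr1:174011998-174031810, all on the minus strand. Ifit3 and Ifit1 are neighbours on chromosome 19 and the plus strand, at chr19:34583531-34588731 and chr19:34640871-34650009. Isg15 is at chr4:156199424-156200818, Ifitm3 at chr7:141009586-141010770, Irf7 at chr7:141262706-141266481 and Bst2 at chr8:71534255-71537456, all on the minus strand.

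The authors' classes held 540, 676 and 1027 epineurial cells in intact nerve, day 7 and day 21, and 116, 241 and 2069 perineurial cells in the same order. Endoneurial cells numbered 663, 255 and 487. Of 8 markers for each layer, 7 or 8 were highest in their own class in every library. The day 7 perineurial class was the weakest match: its perineurial markers summed to 756 CPM against 5421 in intact nerve and 2882 at day 21, and 31.1% of its cells had more perineurial marker UMIs than those of either other layer. Median depth was 5667, 19316 and 7442 UMIs per cell over all annotated cells, and libraries shared 41 to 58 cell barcodes, at most 2 of them annotated in both. Levels below are CPM, a gene's UMIs per 1000000 UMIs of the class in that library. A gene is said to have risen or fallen when it was past 2-fold with a 95% interval that leaves out equality. It was measured when its counts exceeded 3 in either library and its higher level exceeded that of 3 counts in the shallower sum. In the intact perineurial class 3 counts are 4.14 CPM, so low genes there are loosely bounded.

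Epineurial cells had the highest level of the 3 layers for all 9 genes in intact nerve, and perineurial cells the lowest by point value. Perineurial and endoneurial counting intervals overlapped for Ifi205, Ifit1, Ifit3, Isg15 and Irf7, so those layers cannot be ranked for these genes. The epineurial level stood nearer to the perineurial one at day 21 than in intact nerve for the 7 genes with a perineurial UMI in intact nerve. Ifi205 was 96.9 times higher in epineurial cells at day 21 and at least 46.8 times in intact nerve. At day 21 against intact nerve, 2 of 9 genes fell in epineurial cells (Ifi207 and Ifit3) and none rose, beside 7.16% of all measured genes falling and 4.45% rising. In perineurial cells 7 of the 9 were measured, of which Mndal and Ifitm3 rose and none fell, beside 5.91% of genes rising and 9.40% falling. Mndal, Irf7 and Ifit1 passed the filter there through the injured library alone, having 1, 1 and 2 counts in the intact perineurial class. The median log2 ratio over the measured members was -0.58 in epineurial cells and 1.09 in perineurial cells, where all measured genes had medians of -0.05 and -0.07. By sign alone 6 of the 7 genes measured in both classes were lower in epineurial and higher in perineurial cells, beside 19.0% of genes, and for Isg15 and Ifitm3 both intervals left out equality, beside 2.08%. These counts use the contrast that chose the members, and nothing is read from them. In endoneurial cells Mndal rose and Ifi207, Ifit3 and Irf7 fell, beside 4.76% of genes rising and 6.24% falling.

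**Figure D1:**
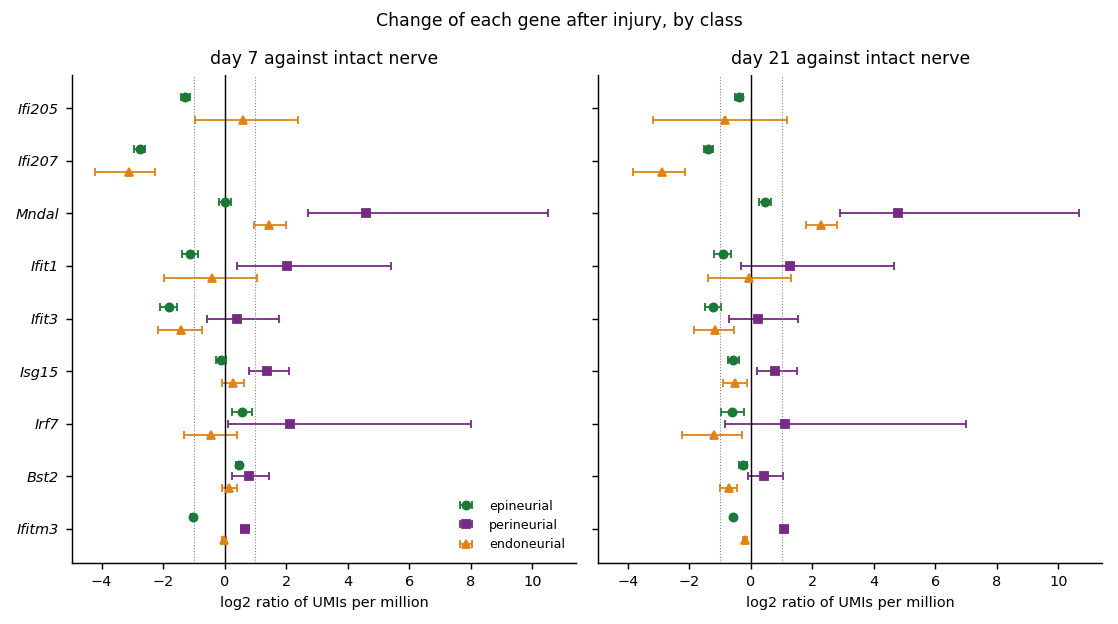
Log2 ratio of CPM of each gene at day 7 (left) and day 21 (right) against intact nerve, in epineurial, perineurial and endoneurial cells. Points are single-library ratios with 95% counting intervals, dotted lines mark 2-fold, and genes not measured in a class have no point. Most epineurial points lie left of 0 and the perineurial points lie right of 0, with Mndal farthest out at 4.79 at day 21.

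At day 7 against intact nerve, 5 of 9 genes fell in epineurial cells, namely Ifi205, Ifi207, Ifit1, Ifit3 and Ifitm3, and none rose, beside 12.5% of all measured genes falling and 6.90% rising. The Ifi205 log2 ratio was -0.93 in place of -1.27 without cells holding a UMI of immune or endothelial markers, and that of Ifit1 was -0.90 in place of -1.13 with cells thinned to 2000 UMIs. The 8 epineurial markers summed to 7740, 3758 and 5870 CPM in the epineurial class across the 3 libraries, with a median log2 ratio of -0.86 at day 7. Its injury mesenchyme markers (8 genes) summed to 400, 5836 and 2227 CPM, and the part of either list was not tested. Irf7 and Bst2 went the other way there, with log2 ratios of 0.55 and 0.46. In perineurial cells 4 of the 7 measured genes rose, namely Mndal, Ifit1, Isg15 and Irf7, beside 9.42% of genes rising and 16.3% falling. Mndal, Ifit1 and Irf7 again passed the filter through the injured library alone, so this count and the median over the 7 support nothing. By sign 4 of 7 were lower in epineurial and higher in perineurial cells, beside 15.5%, and for Ifit1 and Ifitm3 both intervals left out equality, beside 2.22%. The median log2 ratio was -1.04 over the 9 in epineurial cells and 1.38 over the 7 in perineurial cells. Between the bridge libraries, day 21 against day 7, none of the 9 was lower in epineurial and higher in perineurial cells, beside 15.7% of genes. Ifi207 rose and Irf7 fell in both classes in that comparison, the perineurial Ifi207 value resting on 30 UMIs against 2 and passing the filter through day 21 alone, beside 5.87% rising and 4.04% falling in epineurial cells and 8.44% and 7.32% in perineurial cells. In endoneurial cells Mndal rose and Ifi207 and Ifit3 fell at day 7 against intact nerve, beside 8.95% rising and 10.4% falling. None of the 9 was called there between the bridge libraries, beside 5.27% rising and 5.53% falling.

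Several values moved along with the perineurial class. Its vascular smooth muscle markers (6 genes) summed to 1983, 239 and 133 CPM in intact nerve, day 7 and day 21, with 2 of them at 0 in intact nerve. Its 10 dissociation and immediate-early genes summed to 3839, 6765 and 13376 CPM in the same order, against 16338, 11812 and 19168 CPM in epineurial cells. Myeloid markers (11 genes) summed to 4.14, 38.7 and 17.0 CPM in perineurial and 6.33, 38.2 and 18.9 CPM in epineurial cells, and lymphocyte and neutrophil markers were at most 4.11 CPM in both. Leaving out cells with 5 or more smooth muscle UMIs kept 83 of 116 intact perineurial cells. The perineurial median was then 0.64 at day 21 and 0.93 at day 7, with Isg15 at 0.93 at day 7 and so under 2-fold. The endothelial markers were Pecam1, Cdh5, Kdr, Flt1, Emcn, Cldn5, Egfl7 and Plvap. These 8 genes summed to 357, 243 and 285 CPM in perineurial cells, with 6 of them at 0 in intact nerve. Intact epineurial cells had 19.0 CPM of them. Whether these UMIs were the perineurial cells' own was not tested. A UMI of this list was in 74.1%, 88.8% and 73.9% of perineurial cells. Excluding every cell with a UMI of myeloid, lymphocyte, neutrophil or endothelial markers thus took out most of the class. It kept 28 of 116, 20 of 241 and 483 of 2069 perineurial cells, and the day 7 median was then 0.36. Epineurial markers (8 genes) summed to 123, 264 and 394 CPM in perineurial cells, with 4 higher and 1 lower of 6 measured at day 21 against intact nerve and a median log2 ratio of 1.32. Schwann markers (8 genes) summed to 143, 119 and 302 CPM there, with 3 of them at 0 in intact nerve. The parts of the immediate-early, epineurial and Schwann genes in these results were not tested.

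Ifi205 and Ifi207 were far higher in epineurial than in perineurial cells. Ifi205 stood at 194, 80.2 and 149 CPM in epineurial cells of intact nerve, day 7 and day 21. In perineurial cells it had no UMI in intact nerve, 3 UMIs at day 7 (0.80 CPM) and 20 at day 21 (1.50 CPM). Endoneurial cells had 1.73, 2.68 and 0.92 CPM. The level was highest in epineurial cells in every library, and there it fell 2.42-fold at day 7 (95% interval 2.20 to 2.65) while at day 21 it was 1.31-fold lower than in intact nerve (1.19 to 1.42). After thinning to 2000 UMIs, 22.4%, 13.0% and 20.1% of epineurial cells held an Ifi205 UMI (44.3%, 46.6% and 49.4% before thinning). In perineurial cells, whose median depths were 5291, 15443 and 5829 UMIs, the thinned shares were 0, 0 and 0.29%, and 0 of 116 intact cells had a UMI, which a 95% Clopper-Pearson interval bounds at 3.13%. Ifi205 counts are uncertain, since 59.4% of the 90-base words in the last 500 bases of its transcripts also occur in Ifi211 or Mndal.

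Among the 3 layers Ifi207 was also highest in epineurial cells in every library. Epineurial cells had 178, 26.1 and 68.4 CPM in intact nerve, day 7 and day 21, a fall of 6.80-fold at day 7 (5.98 to 7.75) and of 2.60-fold at day 21 (2.34 to 2.89). Endoneurial cells had 26.5, 2.94 and 3.45 CPM, falls of 8.66-fold (4.81 to 18.7) and 7.48-fold (4.43 to 14.3). Perineurial cells had 0, 2 and 30 UMIs, at most 2.24 CPM. None of its words was shared with another gene.

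Mndal behaved unlike both. Its epineurial level was 71.7, 71.8 and 97.8 CPM across the 3 libraries, 1.36-fold higher at day 21 than in intact nerve (1.19 to 1.56). In perineurial cells it had 1 UMI in intact nerve, then 189 UMIs at day 7 (50.4 CPM) and 766 at day 21 (57.3 CPM). The ratio at day 21 was 27.7-fold, with an interval of 7.43 to 1643 because of that single count. Endoneurial cells had 12.1, 33.5 and 58.8 CPM, a rise of 2.74-fold at day 7 (1.93 to 4.02) and of 4.81-fold at day 21 (3.50 to 6.91). The perineurial log2 ratio at day 21, 4.79 as deposited, was 4.94 with cells thinned to 2000 UMIs and 4.18 without the smooth muscle cells. Excluding cells with a UMI of immune or endothelial markers gave 2.29 at day 21 and 1.05 at day 7, on the few cells kept.

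Neighbours of Mndal on chromosome 1 were also higher in injured perineurial cells. Ifi203, an Ifi200 gene that overlaps Mndal on the same strand, had 0, 30.7 and 44.9 CPM in perineurial cells, at least 10.8-fold higher at day 21 than in intact nerve. In endoneurial cells Ifi203 had 6.92, 26.8 and 49.9 CPM, a log2 ratio of 2.82 at day 21 (2.24 to 3.52). Ifi211, which also overlaps Mndal, had 1.38, 23.5 and 18.5 CPM in perineurial cells, a log2 ratio of 3.16 at day 21 (1.25 to 9.05). Ifi204 had 6.89, 11.5 and 12.6 CPM in perineurial cells, where its interval held equality. GENCODE places Mndal across both Ifi211 and Ifi203 on 1 strand, so the counts of the 3 cannot be fully told apart. Ifi207 and Ifi205, at either side of these genes, stayed at or under 2.24 CPM in perineurial cells.

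**Figure D2:**
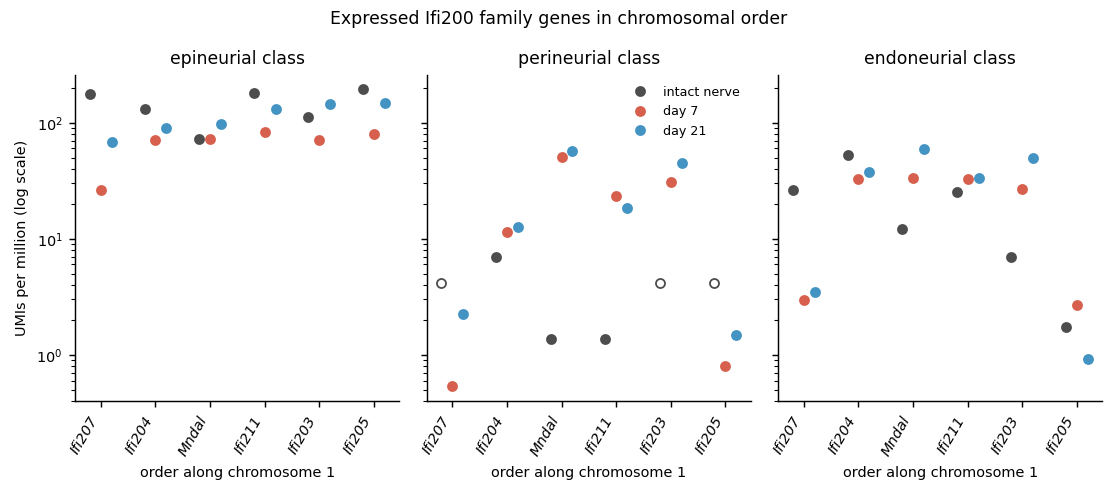
CPM, on a log scale, of the 6 expressed Ifi200 genes in their order along chromosome 1, for epineurial, perineurial and endoneurial cells in the 3 libraries. Open circles mark genes with no UMI, drawn at the level of 3 counts. In perineurial cells Mndal, Ifi211 and Ifi203 lie well above their intact nerve level at both days, while Ifi207 and Ifi205 stay under 3 CPM.

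Ifit1, an RNA-binding effector, stood at 48.4, 22.1 and 25.7 CPM in epineurial cells of intact nerve, day 7 and day 21. In perineurial cells it had 2, 52 and 110 UMIs, or 2.76, 13.9 and 8.22 CPM. Endoneurial cells had 2.88, 2.14 and 2.76 CPM, with intervals that overlap. Epineurial cells were thus the highest of the 3 layers in each library. They fell 2.19-fold at day 7 (1.81 to 2.63) and stood 1.88-fold lower at day 21 than in intact nerve (1.55 to 2.27). The perineurial rise at day 7 was 4.06-fold with an interval of 1.32 to 42.6, and both intact UMIs were in 1 cell. Without cells holding a UMI of immune or endothelial markers its log2 ratio was -0.54 in place of 2.02. That exclusion kept 28 of 116 intact and 20 of 241 day 7 perineurial cells.

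Ifit3, its neighbour on chromosome 19, had 56.2, 15.9 and 24.0 CPM in epineurial cells and fell 3.53-fold at day 7 (2.91 to 4.27) and 2.35-fold at day 21 (1.95 to 2.82). Perineurial cells had 8, 58 and 182 UMIs, the last 2 being 15.5 and 13.6 CPM, and the intervals of both ratios to intact nerve held equality. Endoneurial cells had 17.3, 6.42 and 7.58 CPM, a fall of 2.66-fold at day 7 (1.65 to 4.52) and 2.26-fold at day 21 (1.47 to 3.60). At day 7 the epineurial level was 1.03 times the perineurial one, against 4.81 times in intact nerve. Some Ifit3 reads may belong to its copy Ifit3b, which shares 6.57% of its end sequence.

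Isg15 had 106, 96.9 and 70.8 CPM in epineurial cells, 1.49-fold lower at day 21 than in intact nerve (1.32 to 1.69). Perineurial cells had 30.3, 80.8 and 52.9 CPM, a rise of 2.61-fold at day 7 (1.73 to 4.31) and a level 1.71-fold higher at day 21 than in intact nerve (1.14 to 2.80). Endoneurial cells had 34.9, 41.8 and 24.6 CPM. The epineurial level was 3.41 times the perineurial one in intact nerve. It was 1.20 times at day 7 (1.06 to 1.36) and 1.34 times at day 21 (1.21 to 1.49), with overlapping intervals.

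Irf7 had 25.1, 36.8 and 16.5 CPM in epineurial cells of intact nerve, day 7 and day 21, highest at day 7. The day 7 level was 1.46-fold that of intact nerve (1.18 to 1.84). At day 21 it was 1.52-fold lower than in intact nerve (1.17 to 1.96). Perineurial cells had 1, 33 and 59 UMIs, or 1.38, 8.80 and 4.41 CPM, and endoneurial cells 8.07, 5.89 and 3.45 CPM with a fall of 2.31-fold at day 21 (1.21 to 4.72).

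Ifit1 and Ifit3 rested on few cells. The 10 epineurial cells with most Ifit1 UMIs held 58.1%, 54.0% and 47.9% of all Ifit1 UMIs of that class in intact nerve, day 7 and day 21, and for Ifit3 the shares were 59.0%, 62.0% and 39.7%. At day 7 the 10 highest perineurial cells held 96.2% of Ifit1, 94.8% of Ifit3, 70.6% of Isg15 and 75.8% of Irf7 UMIs. For Isg15 the epineurial shares were 43.2%, 26.8% and 23.9%, and for Irf7 they were 35.4%, 19.6% and 21.2%, beside 18.8%, 19.9% and 10.8% for Ifi205. Mndal and Ifitm3 were spread out by comparison, with 10.2% and 5.92% in the 10 highest epineurial cells at day 7. Single cells could carry several of the genes: the day 7 perineurial cell with most had 67 Isg15, 27 Ifit3, 12 Ifit1 and 9 Irf7 UMIs among its 24002. After thinning to 2000 UMIs, 4.81%, 5.03% and 2.73% of epineurial cells held at least 2 of the 4 genes Ifit1, Ifit3, Isg15 and Irf7 (95% intervals 3.17 to 6.98, 3.51 to 6.96 and 1.82 to 3.92). In perineurial cells the shares were 0.86%, 2.49% and 0.97%, with overlapping intervals.

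**Figure D3:**
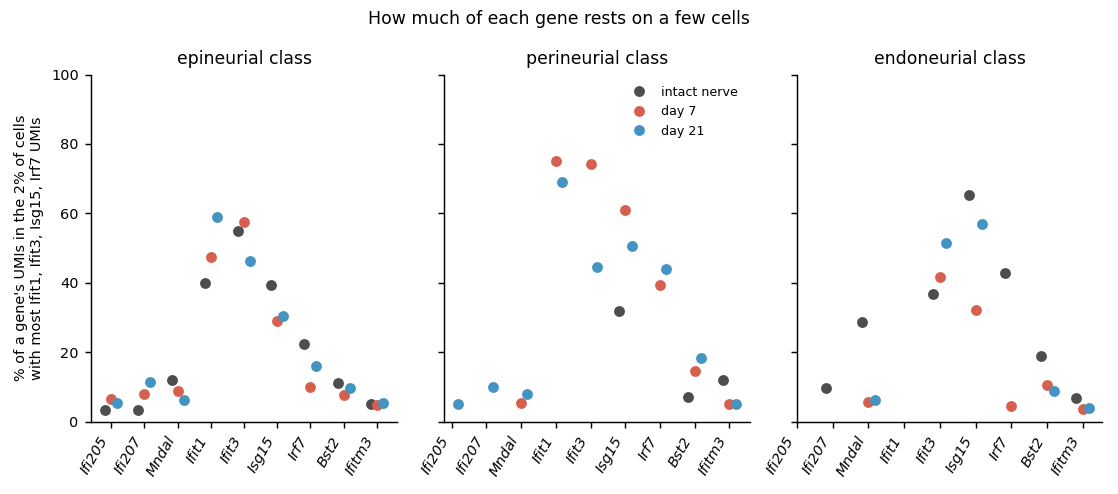
Percentage of each gene's UMIs held by the 2% of cells with most summed UMIs of Ifit1, Ifit3, Isg15 and Irf7, per class and library. Genes with under 20 UMIs in a class and library have no point. Ifit1, Ifit3, Isg15 and Irf7 rank the cells, which raises their shares. Irf7 is nevertheless low in places, at 9.82% in epineurial cells at day 7. Bst2, Mndal and Ifitm3, which do not rank the cells, lie mostly under 20%.

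Leaving out that 2% of cells in each class and library changed several calls. In perineurial cells at day 7 the Isg15 log2 ratio was then 0.57 in place of 1.38, and at day 21 it was 0.30 in place of 0.77, while Ifit3 had -1.32 at day 7. The perineurial median was 0.77 at day 7 and 0.30 at day 21. In epineurial cells the medians were -1.03 and -0.48, and the Ifit3 ratio at day 21 was -0.96, just short of 2-fold.

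Bst2, the antiviral tether of the cell surface, was spread over many cells and led in epineurial cells, with 217, 299 and 182 CPM in intact nerve, day 7 and day 21. It was 1.38-fold higher at day 7 (1.28 to 1.49) and 1.20-fold lower at day 21 (1.10 to 1.30) than in intact nerve. Perineurial cells had 38.6, 68.2 and 53.1 CPM, 1.74-fold higher at day 7 (1.19 to 2.71) than in intact nerve. Endoneurial cells had 73.8, 81.9 and 44.6 CPM. No Bst2 difference from intact nerve reached 2-fold in any layer.

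Ifitm3 was detected in most cells, with a UMI in 92.8%, 79.4% and 88.7% of epineurial cells thinned to 2000 UMIs (98.1%, 99.0% and 99.2% before thinning). Its epineurial level was 2217, 1078 and 1493 CPM, a fall of 2.06-fold at day 7 (2.00 to 2.11) and a level 1.49-fold lower at day 21 than in intact nerve (1.45 to 1.53). Perineurial cells had 721, 1138 and 1536 CPM, 1.58-fold higher at day 7 (1.44 to 1.73) and risen 2.13-fold at day 21 (1.95 to 2.33). The epineurial and perineurial levels drew together: epineurial cells had 0.97 times the perineurial level at day 21, against 3.07 times in intact nerve. Endoneurial cells stayed at 1304, 1290 and 1147 CPM, within 1.14-fold of intact nerve. Both 2-fold calls are close to the line, with log2 ratios of -0.97 in epineurial cells at day 7 and 0.96 in perineurial cells at day 21 once smooth muscle cells were left out.

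**Figure D4:**
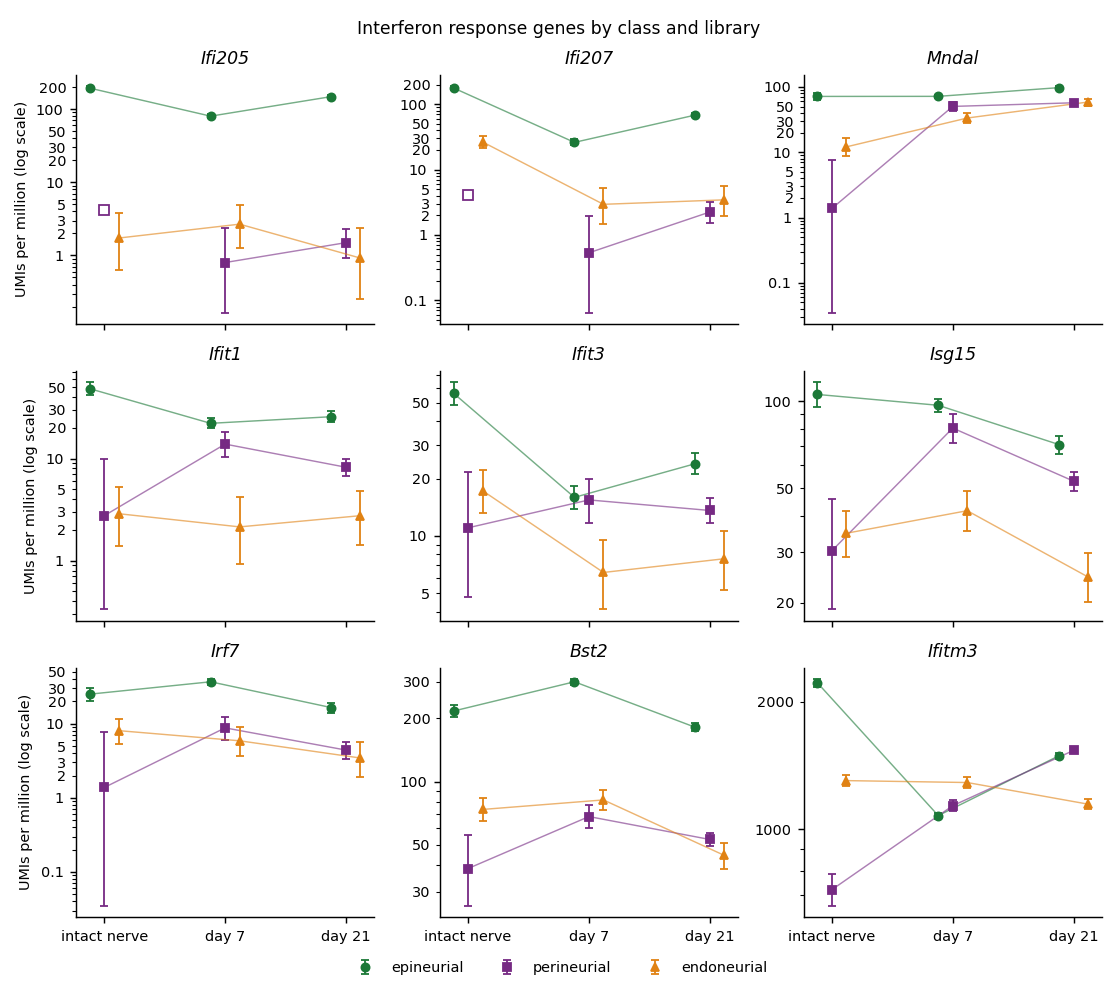
Level of each of the 9 genes in CPM, on a log scale that differs between panels, in epineurial, perineurial and endoneurial cells of intact nerve, day 7 and day 21. Bars are 95% counting intervals, and open squares mark classes with no UMI, drawn at the level of 3 counts. Ifitm3 shows the epineurial and perineurial levels drawing together, with 1493 in epineurial and 1536 in perineurial cells at day 21, against 2217 and 721 in intact nerve.

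In MES_DIFF cells, a class of the authors counting 308 at day 7 and 387 at day 21, Ifitm3 had 1551 CPM at day 21 against 921 at day 7, and Bst2 86.2 against 139 CPM. None of the 9 passed 2-fold in that class, beside 10.6% of genes rising and 6.25% falling. Dividing cells had 124 CPM of Isg15 at day 21 against 130 at day 7, higher than the perineurial class at both times. The 10 highest dividing cells held 75.1% of these UMIs at day 7 and 72.3% at day 21. Ifit1 fell in that class to 5.40 CPM, against 28.0 at day 7, the 1 gene of the 9 called in dividing cells, beside 3.93% of genes falling and 8.35% rising. Its day 7 level rested on 1 cell with 82 of the 145 Ifit1 UMIs, which also held 177 Isg15 UMIs, and without the top 2% of cells the log2 ratio was 2.19 in place of -2.29. The MES_EPI-diff class, 94 cells at day 7, had no Ifit3 UMI, 58.2 CPM of Isg15 and 210 CPM of Bst2.

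Summed over all annotated cells, Ifi207 and Ifit3 fell at day 21 against intact nerve, to 23.2 CPM against 95.8 and to 15.1 CPM against 34.8, beside 8.94% of genes falling and 7.10% rising. At day 7 Ifi205, Ifi207 and Ifit3 fell, beside 15.6% falling and 9.66% rising, and between the bridge libraries Irf7 fell, beside 6.99% falling and 9.36% rising. At day 21 Mndal was 1.77-fold higher than in intact nerve (1.59 to 2.00). The class mixture shifted between these libraries, with perineurial cells 50.3% of annotated cells at day 21 and 8.64% in intact nerve. With the 3 layers held at 1 mixture the log2 ratio of Ifi205 was -0.38 in place of -0.93, that of Mndal 1.28 in place of 0.83 and that of Ifitm3 -0.03 in place of -0.22.

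The other genes of the pathway were described by lists chosen with earlier results of these data known, beside the same background shares. Of 53 other interferon-stimulated genes, 44 were measured in epineurial cells at day 21 against intact nerve, of which 5 fell and 1 rose. The median log2 ratio was -0.30, and of all measured genes 7.16% fell and 4.45% rose. In perineurial cells 33 were measured, of which 9 rose and 2 fell (Adar and Trim25), beside 5.91% of genes rising and 9.40% falling. The median was 0.44, or 0.40 with genes absent from intact nerve set at their bound. Genes with almost no intact counts, such as Ifi203 (0) and Ifi211 (1), passed the filter there through day 21 alone. This count and median therefore support nothing. Ifitm1, a relative of Ifitm3, showed both movements: perineurial cells had 22.1, 74.6 and 162 CPM in intact nerve, day 7 and day 21, and epineurial cells 55.7, 8.34 and 18.5 CPM. Its log2 ratio at day 21 was 2.83 in perineurial cells (2.18 to 3.69) and -1.59 in epineurial cells (-1.87 to -1.30). Ifi27l2a, an interferon-induced gene, fell in epineurial cells to 190 CPM at day 21, against 514 in intact nerve. Slfn5 rose in perineurial cells to 29.8 CPM at day 21, against 6.89 in intact nerve.

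Ligands were all but absent. None of 10 interferon genes was measured in any layer, and their summed level was at most 1.38 CPM, a single count. Of 10 receptor and signalling genes, none was called in epineurial cells at day 21, beside 4.45% of all measured genes rising and 7.16% falling. Among them 2 rose in perineurial cells, Ifngr2 and Jak2, beside 5.91% of all measured genes rising and 9.40% falling. Jak2 (3 intact counts) passed the filter there through day 21 alone. Ifngr2 had 34.2 CPM there at day 21, against 12.4 in intact nerve. Ifngr1 fell in endoneurial cells to 120 CPM at day 21, against 245 in intact nerve. Of the interferon regulatory factors other than Irf7, Irf1, a target of interferon gamma, rose in perineurial cells to 370 CPM at day 21, against 74.5 in intact nerve (log2 2.30, 1.93 to 2.73).

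Among the inhibitors, Socs1 and Socs3, which block Jak kinases, rose in perineurial cells. Socs1 had 111 CPM at day 21, against 15.2 in intact nerve, and Socs3 had 1323 CPM, against 230. Socs3 and Irf1 are also inducible by cytokines other than interferons, and the immediate-early sum of this class moved with them. The 19 interferon gamma genes were mixed. In epineurial cells 4 rose and 2 fell of 17 measured, beside 4.45% of all measured genes rising and 7.16% falling. In perineurial cells 5 rose and 1 fell of 11, beside 5.91% rising and 9.40% falling. The perineurial median was 1.85, or 0.54 at the bounds. Cxcl10, with 0 counts in the intact perineurial class, passed the filter there through day 21 alone. So did others with 1 or 2 intact counts, and the perineurial count and median support nothing. The chemokine genes Cxcl9 and Cxcl10 rose in epineurial cells, to 66.7 CPM at day 21 against 11.1 in intact nerve and to 192 CPM against 86.1. Nucleic acid sensors had 1 called gene among 7 measured in perineurial cells, Ddx58, which rose, and none among 10 in epineurial cells. The 4 genes of Isg15 conjugation had none called in either layer, with a median of -0.82 in epineurial cells. The counts of both lists stand beside the same shares of all measured genes, 4.45% and 7.16% in epineurial and 5.91% and 9.40% in perineurial cells.

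Of the class I antigen presentation genes, 1 of 13 measured fell in epineurial cells at day 21 and none rose, with a median of -0.57. Of all measured genes 7.16% fell and 4.45% rose. H2-T23, a non-classical class I gene, had 87.9 CPM in epineurial cells at day 21, against 218 in intact nerve, and 102 against 225 CPM in endoneurial cells. At day 7 the count that fell in epineurial cells was 6 of 13, H2-D1 and Psmb9 among them, beside 12.5% of all measured genes. Psmb8, an immunoproteasome subunit, had no UMI in intact perineurial cells and 54.1 and 10.1 CPM at day 7 and day 21, at least 13.1-fold and at least 2.44-fold higher. It passed the filter there through the injured libraries alone. Other genes of this list went either way in perineurial cells. In intact nerve, day 7 and day 21, H2-T23 had 112, 65.6 and 64.0 CPM there, and Psmb10 had 31.7, 105 and 61.8 CPM.

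**Figure D5:**
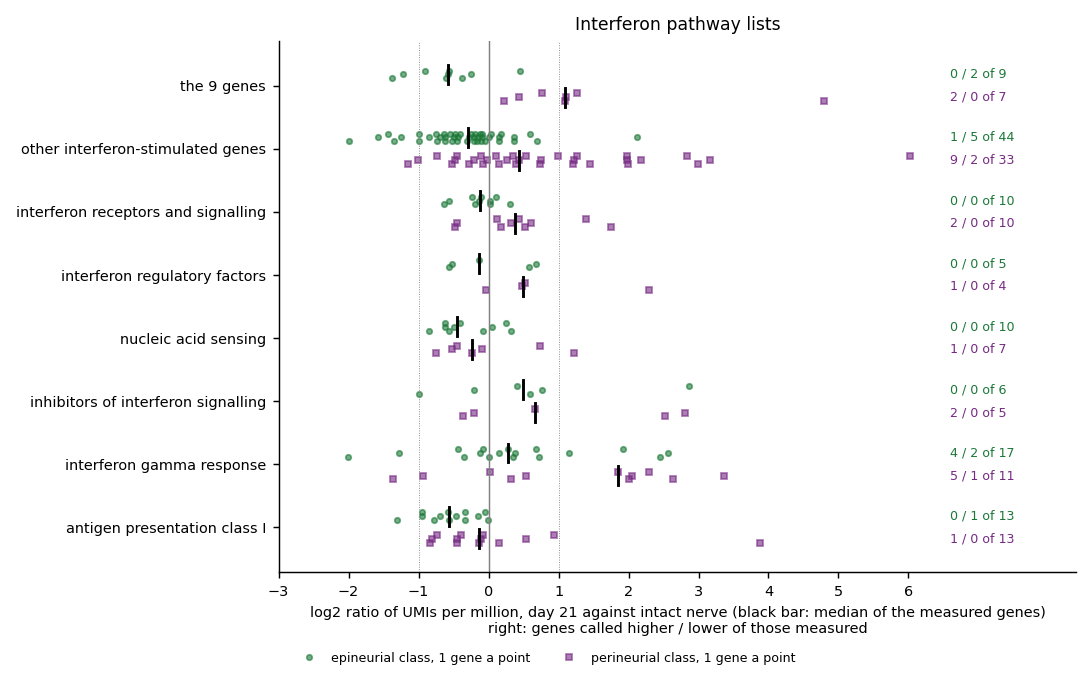
Log2 ratio of CPM at day 21 against intact nerve for every measured gene of each pathway list, in epineurial and perineurial cells. Black bars are list medians, dotted lines mark 2-fold, and the numbers at the right give genes called higher and lower of those measured. Epineurial points of the other interferon-stimulated genes centre on -0.30 and perineurial points on 0.44, with both classes spread over both sides of 0. Genes with almost no intact perineurial counts have a perineurial point only through day 21.

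The genes most like the mean of the 9 across 14 class and library sums included several epineurial markers. By Pearson r over 8170 genes, as a description over sums that share libraries, the closest was Ly6c1 (r = 0.95), followed by Rnf213, Nfib, Pi16, Slit3, Ces2g, Ism1, Il17ra, Pcolce2 and Ly6a, the last at 0.91. Ly6c1 had 302 CPM in epineurial cells at day 21 and 759 in intact nerve, with 3.44 and 1.38 CPM in perineurial cells at the same times. Ly6c1, Pi16 and Pcolce2 are among the markers that defined the epineurial check. The members themselves correlated with their mean at 0.52 for Ifit3 to 0.92 for Ifi205.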

How the data were processed

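UMI counts per gene and barcode, as the authors deposited them, came from droplet libraries of 3 groups with 1 library each. Per the file headers they were made with Cell Ranger 6.1.2, and the submitters' processing notes list Cell Ranger (6.1.2, 3.0.2) and Seurat (4.0.1), with mm10 and GRCm38 as builds. The authors' deposited metadata gave each annotated cell 1 of 6 classes. A class was given to 7234 cells, and 1 listed cell was not found in the matrices. Cell filters and doublet treatment are not given in the sources used here, and no further filter was applied.

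Counts were summed per class and library with at least 50 cells and scaled to CPM. Annotated totals were 8371421, 36169912 and 33683464 UMIs for intact nerve, day 7 and day 21. Each CPM has an exact Poisson 95% interval, each share an exact Clopper-Pearson interval, and each ratio (0.5 counts added) an exact conditional binomial interval. UMIs of 1 library measure no spread between animals. The condition that the higher level exceed 3 counts of the shallower sum was added after the values were seen. Shares of cells were also taken after thinning to 2000 UMIs. Python 3.11.15, numpy 2.4.6, scipy 1.17.1 and pandas 2.3.3 were used, and the interval code was tested on simulated data. Alternatives changed the scaling, the counts added, the filter, the depth and the cells kept. Members, gene lists and markers were chosen with earlier results of these data known. All members are named, with up to 6 genes per pathway list (largest day 21 ratio against intact nerve in epineurial or perineurial cells, at least 20 CPM) and 10 genes most like the members. Names outside this rule (Ifi211, Ifi204, Adar, Jak2) were chosen after their values were seen.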

Additional observations from a re-analysis of the deposited data

Results flagged for a closer look

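Several genes moved one way in 1 layer and the other way in another, with both counting intervals leaving out equality. Each difference is the first layer's log2 ratio minus the second's, and these differences were not tested, since each group is 1 library. At day 7 against intact nerve, epineurial minus perineurial was -3.15 for Ifit1 (-1.13 and 2.02) and -1.70 for Ifitm3 (-1.04 and 0.66). Without cells holding a UMI of immune or endothelial markers the perineurial Ifit1 ratio was -0.54, so its opposite movement was then absent. Most perineurial cells held such a UMI, and 28 of 116 intact and 20 of 241 day 7 cells were kept. Whether such UMIs were the perineurial cells' own was not tested, so the exclusion cannot be read as removing other cell types alone. At day 21 against intact nerve, epineurial minus perineurial was -1.35 for Isg15 (-0.58 and 0.77) and -1.66 for Ifitm3 (-0.57 and 1.09). In the same comparison endoneurial minus perineurial was -1.27 for Isg15 (-0.50 and 0.77) and also -1.27 for Ifitm3 (-0.18 and 1.09). At day 21 against day 7, Ifitm3 gave 0.64 for epineurial minus endoneurial (0.47 and -0.17) and -0.60 for endoneurial minus perineurial (-0.17 and 0.43).

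Barcodes without a class whose UMIs were led by vascular smooth muscle markers (220 in intact nerve, 143 at day 7, 87 at day 21) enter no comparison above, and several genes were higher in them after injury. At day 7 Ifi205 had 8.10 CPM against 0 in intact nerve, Mndal 44.2 against 13.4, Ifit1 7.36 against 0.67, Bst2 186 against 47.0 and Ifitm3 1071 against 422. At day 21 Mndal had 79.1 CPM, Ifit1 33.3, Bst2 143 and Ifitm3 1444, against the same intact levels. Ifit3 had 18.04 CPM at day 21 against 2.69 in intact nerve, and Isg15 had 394 against 95.4.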

How the results depend on the processing

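The median log2 ratio over measured members was recomputed for 14 combinations of class and comparison. It kept its direction in epineurial and perineurial cells against intact nerve under every alternative run. That direction chose the members, and some perineurial genes passed the filter through the injured library alone, so keeping it supports nothing. At day 21 the epineurial median lay between -0.60 and -0.48. The perineurial median at day 21 was lower without the smooth muscle cells or the 2% of cells, as given above. For day 7 against intact nerve, without cells holding a UMI of myeloid, lymphocyte, neutrophil or endothelial markers, the perineurial median was 0.36. Ifit1 then had -0.54, on 20 of 241 day 7 perineurial cells. The medians that reversed all compare day 21 with day 7. Without those marker cells they were 0.22 in endoneurial, 0.22 in perineurial and 0.11 in dividing cells, where Ifit1 had 0.054. In cells led by their own layer's markers they were 0.11 in endoneurial and 0.58 in perineurial cells. Without the 2% of cells with most Ifit1, Ifit3, Isg15 and Irf7 UMIs they were 0.14 in perineurial and 0.17 in dividing cells, where Ifit1 had 2.19. Without cells holding 5 or more smooth muscle UMIs they were 0.17 in perineurial and, with no change of direction, -1.03 in dividing cells. Thinning gave -0.33 in MES_DIFF and -0.11 over all annotated cells. The cause was not tested. These 2 alternatives (the 2% of cells and the smooth muscle cells) and a looser filter were chosen after seeing the data. The offset estimated by median-of-ratios scaling was over 0.1 in size in places. At day 7 against intact nerve it was -0.19 in perineurial and -0.10 in epineurial cells. The medians of the CPM log2 ratios over all measured genes were -0.15 and -0.12 there. No paired analysis was possible because each group is 1 library. In the 116 intact perineurial cells 3 counts are 4.14 CPM, and 1 library per group gives no spread between animals.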

Other observations

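Unclassed barcodes were assigned to a marker list when they held at least 5 of its UMIs and 2 times those of the next list. Ifi207, nearly absent from perineurial cells, had 236 CPM at day 7 and 487 at day 21 in barcodes led by myeloid markers. Bst2 and Ifitm3 were high in barcodes led by endothelial markers, at 531 and 2281 CPM at day 7 and 865 and 2987 at day 21. Isg15 had 132 CPM at day 7 and 392 at day 21 in barcodes led by pericyte markers, and 41.3 and 129.98 CPM in those led by Schwann markers. Barcodes were not tied to animals, and none of these values was tested.

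Epineurial cells were also divided, after their values were seen, by a UMI of Pi16 or Dpp4, which mark a fibroblast type found in many tissues. In intact nerve the 285 cells with such a UMI had 49.8 CPM of Isg15, against 181 in the 255 cells without. Ifit3 had 27.8 against 94.7 CPM and Ifit1 34.8 against 66.7 CPM in the same cells. Ifi207 had 143 against 224 CPM, Mndal 57.3 against 91.1 CPM and Ifitm3 2033 against 2466 CPM. Ifi205 had 191 against 197 CPM, Bst2 218 against 216 CPM and Irf7 23.4 against 27.4 CPM. In intact nerve 10 epineurial cells held 43.2% of Isg15 and 59.0% of Ifit3 UMIs, and their part in this contrast was not tested. At day 21 Isg15 had 73.3 CPM in 736 cells with such a UMI, against 63.6 in 291 cells without.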
